A study of Mus musculus with 6 samples.

Results

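The genes described here are 10 components at the receiving end of Wnt signaling: the ligands Wnt3 and Wnt11, the receptors Fzd1, Fzd2, Fzd5, Fzd6, Fzd7 and Fzd8, and the coreceptors Lrp5 and Lrp6. They were taken by symbol from a table of 21397 genes, all 10 are listed in it, and no threshold on their values was applied, although earlier results of these data were known when they were chosen. RNA was sequenced from small intestinal organoids of Fpr2f/f mice, which carry a floxed Fpr2 gene with no Cre named. The Control group received the vehicle, 0.1% DMSO, and the MMK-1 group received MMK-1, a synthetic peptide agonist of formyl peptide receptor 2 (FPR2), at 1 μmol/L. Both groups were collected at day 5 and have 3 libraries each. Each sample of this experiment is described as holding organoids of 3 mice, without saying how mice were divided among samples. Libraries are thus taken as pools, and p-values measure the spread between them. In the labels the treatment field writes the dose as 1 mM, whereas the protocol text gives the value used here. Organoids of this kind consist of epithelium in a gel and medium that supplies growth factors, and they lack the stromal cells that surround crypts in the animal.

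Wnt proteins are secreted lipid-modified ligands that bind a Frizzled receptor, a protein with 7 membrane passes, together with LRP5 or LRP6. The bound complex recruits Dishevelled and Axin, which stops the destruction of β-catenin and lets it act with TCF/LEF factors on target genes. In the small intestine this signal maintains the stem cells at the crypt base. Paneth cells, their neighbours, are the known epithelial source of Wnt3, while stromal cells supply other Wnt ligands, and Frizzled-7 is known for its role in intestinal stem cells.

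Values are FPKM, fragments adjusted for the length of the gene and for the size of the library, so that levels can be compared between genes. Each value stands for a whole number of fragments, which was also computed. The libraries held 35512739 to 37537463 fragments. The groups separated along the first principal component (92.4% of the variance), and MMK-1 replicate 3 stood apart from the other MMK-1 libraries along the second (4.48%). Tests were made by limma-trend on log2(FPKM + 1) wherever the mean FPKM reached 1, and with limma-voom on fragments for Wnt11, Fzd1 and Fzd2, which lay under that level. Fold changes on the log2(FPKM + 1) scale understate the change of genes near an FPKM of 1. Two-sided exact permutation tests over libraries cannot go below p = 0.1 with 3 against 3.

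Most of the 10 genes differed between the groups, in the direction of higher transcript levels with MMK-1. Of the 7 genes tested by limma-trend, 4 rose (Wnt3, Fzd5, Fzd7 and Lrp5), 1 fell (Fzd8) and 2 passed in neither direction (Fzd6 and Lrp6), with the threshold set at an adjusted p of 0.05. In the same fit 48.5% of 10551 genes were higher and 24.7% were lower, so that a gene called in either direction was common among all genes. By limma-voom, with all 10 genes tested, 6 rose and 1 fell, against 39.0% higher and 20.5% lower among 15917 genes. The libraries of the groups did not overlap for 6 genes that were higher and 1 that was lower, whereas 43.2% and 23.0% of the genes of the limma-voom fit were separated in those directions. These shares are near the background, and the sections that follow therefore concern the size of each change. By the thresholds of the study's methods, a 2-fold change with p up to 0.05, limma-trend called 0 of the 7 genes in either direction, although 5 had an unadjusted p under 0.05. The fold change here is that of FPKM + 1 and so is not the measure of the study. As ratios of mean FPKM, Wnt3 rose 3.81-fold and Fzd7 2.02-fold. The background for this rule was 3.39% higher and 3.65% lower. On fragments, limma-voom called 3 of the 10 genes higher by the same rule (Fzd2, Wnt3 and Fzd7) and 0 lower, with 8 at an unadjusted p under 0.05, against a background of 10.9% higher and 7.2% lower.

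**Figure D1:**
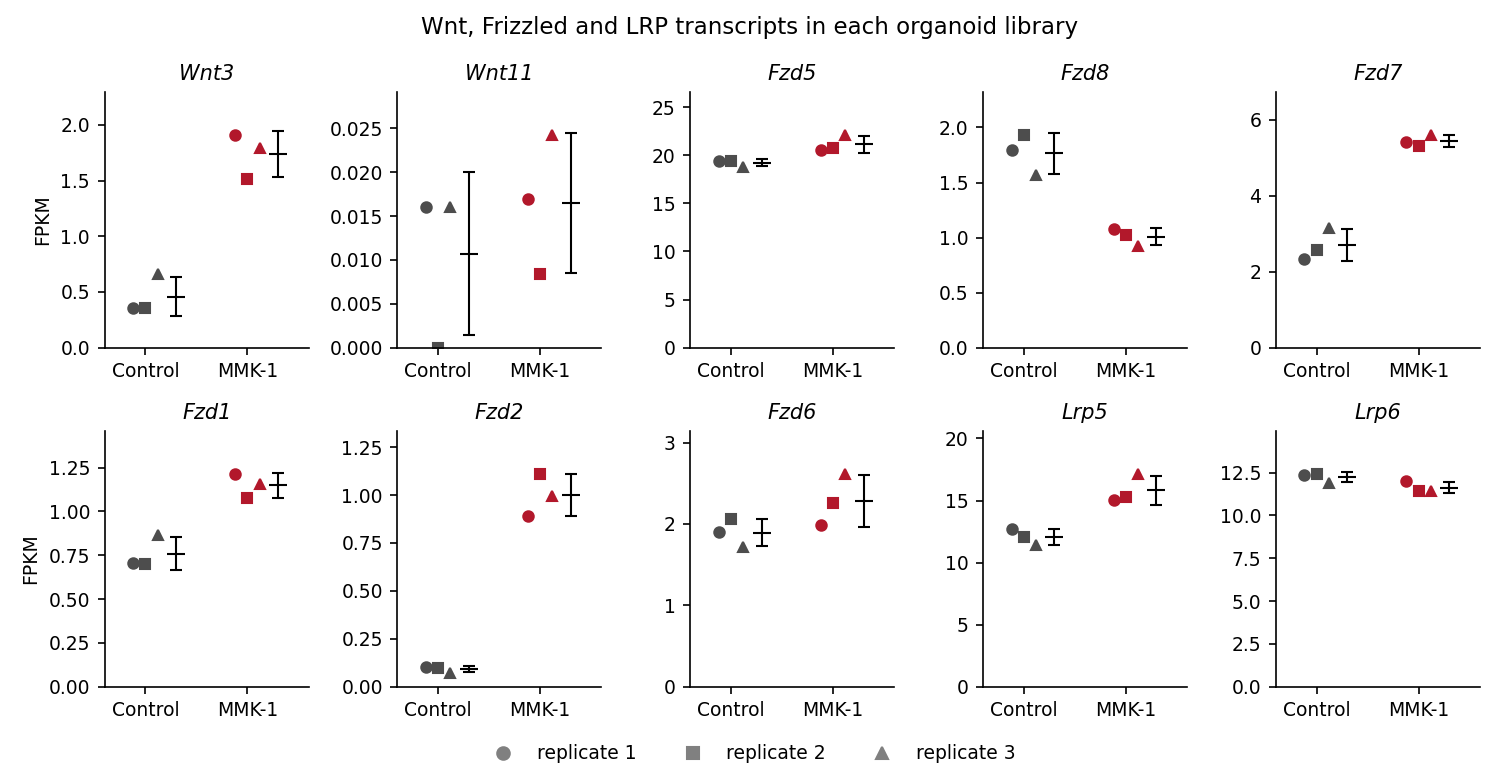
FPKM (vertical axes, each from 0 and with its own scale) of the 10 genes in the 3 Control libraries (grey) and the 3 MMK-1 libraries (red). Symbols mark the replicate number, and the bar beside each group is the mean ± SD. The groups are apart for Wnt3, Fzd1, Fzd2, Fzd5, Fzd7, Fzd8 and Lrp5, and they overlap for Wnt11, Fzd6 and Lrp6.

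Wnt3, a ligand of the β-catenin branch made by Paneth cells in the crypt, was the main Wnt transcript. Wnt3 (NCBI gene 22415) lies at chr11:103774175-103818021 in the RefSeq annotation of GRCm38.p6. Its FPKM was 0.352, 0.359 and 0.658 in the Control libraries, from 45, 46 and 84 fragments. With MMK-1 it was 1.91, 1.52 and 1.79, from 232, 186 and 227 fragments. Every MMK-1 library lay above every Control library, and Control replicate 3 stood above the other Controls. The mean rose from 0.456 ± 0.175 to 1.74 ± 0.203 (SD, n = 3 libraries), a ratio of 3.81. The log2 fold change of Wnt3 was 0.92 by limma-trend (standard error 0.0973, adjusted p = 3.86e-05) and 1.98 by limma-voom on fragments (standard error 0.233, adjusted p = 1.47e-05). In bulk libraries, a change in the number of cells of a type and a change in RNA per cell cannot be told apart. Of 7 Paneth cell markers, all 7 rose by limma-trend, beside 48.5% of all genes, and 6 by limma-voom, beside 39.0% (Defa22 did not pass). Their summed FPKM was 393 to 435 in Control libraries and 1280 to 1410 with MMK-1. Most of it was Defa24, whose mean went from 281 to 750, a ratio of 2.67. Against 3.81 for Wnt3, the ratio was higher for Itln1 (5.91), Mmp7 (5.24) and Defa17 (4.08). It was lower for Lyz1 (3.69), Ang4 (3.12) and Defa22 (1.87), as for Defa24. The ratio of Wnt3 to this summed marker FPKM, as Wnt3 FPKM for each 1000 FPKM of markers, was 1.11 ± 0.351 in Controls and 1.31 ± 0.163 with MMK-1 (SD, n = 3, exact permutation p = 0.4). By library it was 0.895, 0.911 and 1.51 in Controls and 1.5, 1.18 and 1.27 with MMK-1, so the groups overlapped through Control replicate 3. With that library left out, a check chosen after seeing the data, the Control mean was 0.903, the difference was 0.412 in place of 0.209, and the groups did not overlap. With any other library left out the difference lay between 0.104 and 0.279. The part of the Paneth cell markers in the change of Wnt3 was not tested.

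Wnt11, a ligand best known for signaling without β-catenin, was barely detected. Wnt11 (NCBI gene 22411, chr7:98835084-98854747) was covered by 2, 0 and 2 fragments in Control libraries, against 2, 1 and 3 with MMK-1. No library exceeded the 3 fragments that a count of 0 allows, which correspond to an FPKM of 0.024 to 0.0254 for this gene. No difference was detected at this depth (adjusted p = 0.491 by limma-voom), which leaves room for changes that keep the gene within a few fragments, and a fold change of so few fragments carries no direction.

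The other Wnt genes were sparse too, with at most 15 fragments in a library. Of 19 mouse Wnt genes, 14 are listed in the table, and Wnt3 was the only one of these 14 whose mean FPKM reached 1. The Wnt genes other than Wnt3 together had 24 to 40 fragments in a Control library and 20 to 27 with MMK-1. Fragments of Wnt4 numbered 15, 10 and 5 in Controls and 1, 0 and 1 with MMK-1, and it was the 1 Wnt gene called lower by limma-voom (adjusted p = 0.00594). Those of Wnt9b numbered 2, 8 and 3 in Controls and 3, 9 and 14 with MMK-1, groups that overlapped (adjusted p = 0.268 by limma-voom). Wnt3 held 65.0% ± 12 of the summed Wnt FPKM in Controls and 91.5% ± 0.606 with MMK-1 (SD, n = 3, exact permutation p = 0.1, the smallest possible).

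The promoters of Wnt3, Fzd7 and Fzd1 are shown as those of genes that rose by more than the median gene and have a window, while Fzd5, which also has one, was near that median. RefSeq windows on GRCm38.p6, from 250 bases before to 50 bases after the start of transcription, were matched by symbol for 5 of the 10 genes: Wnt3, Wnt11, Fzd1, Fzd5 and Fzd7. Those of 3 genes follow in the direction of transcription, for Wnt3 at chr11:103773925-103774224 (plus strand), for Fzd7 at chr1:59481897-59482196 (plus strand) and for Fzd1 at chr5:4758167-4758466 (minus strand). Capitals mark a match to CTTTGA, the only form of the TCF/LEF core that was searched.
Wnt3: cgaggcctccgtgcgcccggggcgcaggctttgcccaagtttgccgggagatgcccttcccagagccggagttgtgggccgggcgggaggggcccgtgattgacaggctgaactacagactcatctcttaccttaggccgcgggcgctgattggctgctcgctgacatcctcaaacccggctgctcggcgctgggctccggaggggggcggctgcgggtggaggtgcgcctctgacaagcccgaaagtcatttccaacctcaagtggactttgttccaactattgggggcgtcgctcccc
Fzd7: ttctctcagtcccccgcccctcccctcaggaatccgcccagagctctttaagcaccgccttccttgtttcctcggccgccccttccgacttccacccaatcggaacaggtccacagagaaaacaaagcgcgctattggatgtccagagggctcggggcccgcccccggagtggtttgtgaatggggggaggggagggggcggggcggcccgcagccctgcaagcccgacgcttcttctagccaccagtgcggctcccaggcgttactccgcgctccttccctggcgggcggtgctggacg
Fzd1: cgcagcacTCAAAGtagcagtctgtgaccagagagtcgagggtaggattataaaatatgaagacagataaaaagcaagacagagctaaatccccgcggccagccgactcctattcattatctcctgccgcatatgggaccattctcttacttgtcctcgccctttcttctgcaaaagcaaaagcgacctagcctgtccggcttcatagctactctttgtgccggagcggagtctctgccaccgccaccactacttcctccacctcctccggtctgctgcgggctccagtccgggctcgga
The TCF/LEF core was searched on both strands as the string CTTTGA only. This string was found in the Fzd1 window, where it reads TCAAAG in the direction of transcription and begins 242 bases before the start. It was also found in 1 of the windows of Wnt11, beginning 50 bases before the start, and in 16.0% of all 32851 promoter windows. The AP-1 core TGANTCA, which reads the same on both strands, was in none of the windows of the 5 genes and in 7.81% of all windows. No window of these genes held both strings, and a match describes letters only. Strings that differ from CTTTGA in the last base were not counted. Examples are ctttgt in the windows of Wnt3 and Fzd1 and, on the other strand, in that of Fzd7. The search therefore does not tell which of these promoters have a TCF/LEF site. The windows of Wnt3 and Fzd7 were rich in G and C, at 65.7% and 66.7% with 24 CpG dinucleotides each, and that of Fzd5 held 75.7% with 38. The Fzd1 window, at 54.0% with 16 CpG dinucleotides, was nearer to the medians of all windows, 52.7% and 7.

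Among the receptors, Fzd7 and Fzd2 showed the largest rises. Fzd7 (NCBI gene 14369, chr1:59482147-59486955) encodes a receptor of crypt base stem cells. Its FPKM was 2.34, 2.58 and 3.15 in Control libraries, from 421, 466 and 567 fragments. With MMK-1 it was 5.40, 5.30 and 5.60, from 922, 916 and 1001 fragments. The MMK-1 libraries lay close together and well above all Controls. The mean rose 2.02-fold, from 2.69 ± 0.419 to 5.44 ± 0.154 (SD, n = 3), with a log2 fold change of 0.81 by limma-trend (standard error 0.0798, adjusted p = 2.46e-05) and 1.02 by limma-voom.

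Fzd2 (NCBI gene 57265, chr11:102604431-102608058), a receptor of the same subfamily as Fzd1 and Fzd7, had the largest change of the 10 genes. Its fragments numbered 14, 13 and 10 in Control libraries and 115, 145 and 134 with MMK-1. The lowest MMK-1 library thus had several times the fragments of the highest Control. FPKM rose from 0.0907 ± 0.0152 to 1.00 ± 0.11 (SD, n = 3), a ratio of 11.02, and the log2 fold change by limma-voom was 3.42 (standard error 0.321, adjusted p = 2.17e-06). Even after this rise, Fzd2 remained among the low transcripts, at the level of Fzd1 and Fzd8.

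Fzd1 (NCBI gene 14362, chr5:4753839-4758216), the third receptor of this subfamily, rose less. Its fragments were 116, 115 and 142 in Controls and 189, 169 and 188 in MMK-1 libraries, with every MMK-1 library above every Control. FPKM went from 0.758 ± 0.0948 to 1.15 ± 0.0709 (SD, n = 3), a ratio of 1.52, and the log2 fold change by limma-voom was 0.60 (standard error 0.144, adjusted p = 0.0033). The gene lengths implied by the fragments of Fzd1, Fzd2, Fzd7 and Fzd8 equal the RefSeq spans of these genes, which have no intron there, so fragments from unspliced and spliced RNA of them are not distinguishable.

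Fzd8 (NCBI gene 14370, chr18:9212856-9216201), a receptor closely related to Fzd5, was the only one of the 10 genes that fell. Its Control libraries held 225, 243 and 196 fragments and its MMK-1 libraries 128, 123 and 115. All MMK-1 libraries lay below all Controls. FPKM fell from 1.77 ± 0.186 to 1.01 ± 0.0770 (SD, n = 3), 1.75-fold lower, with a log2 fold change of -0.46 by limma-trend (standard error 0.0703, adjusted p = 3.59e-04) and -0.80 by limma-voom.

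Fzd5 (NCBI gene 14367, chr1:64730558-64737750), known as a receptor needed for Paneth cell maturation, was the most abundant Frizzled transcript in every library. Its FPKM was 19.4, 19.4 and 18.8 in Controls and 20.6, 20.7 and 22.2 with MMK-1. The groups were separated by a small margin. The mean was 19.2 ± 0.359 in Controls and 21.2 ± 0.864 with MMK-1 (SD, n = 3), a log2 fold change of 0.13 by limma-trend (standard error 0.0447, adjusted p = 0.0252). Over all genes tested the median was also 0.13, and Fzd5 differed from this median by -0.00237. Scaled by the upper quartile of all listed genes, its log2 fold change was -0.02 (adjusted p = 0.577 by limma-trend), and without Control replicate 1, 2 or 3 its adjusted p was 0.0567, 0.0617 or 0.0933. Over 16 alternatives the adjusted p of Fzd5 ranged from 0.00575 to 0.741.

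Fzd6 (NCBI gene 14368, chr15:39006149-39038192), a receptor known from planar cell polarity, did not pass the test. Its Control libraries held 318, 345 and 287 fragments and its MMK-1 libraries 314, 362 and 434, so the groups overlapped. FPKM was 1.89 ± 0.170 in Controls and 2.29 ± 0.319 with MMK-1 (SD, n = 3), a log2 fold change of 0.18 by limma-trend with a 95% confidence interval from -0.00775 to 0.368 (adjusted p = 0.0761). MMK-1 replicate 1 lay lowest in its group, and without it the adjusted p was 0.0251, the lowest of 16 alternatives that reached up to 0.451. In GENCODE vM21, Fzd5 overlaps Gm38058, Fzd6 overlaps Gm26704 and Wnt11 overlaps Gm8398, each on the opposite strand, and whether the authors counted by strand is not given in the sources used here.

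**Figure D2:**
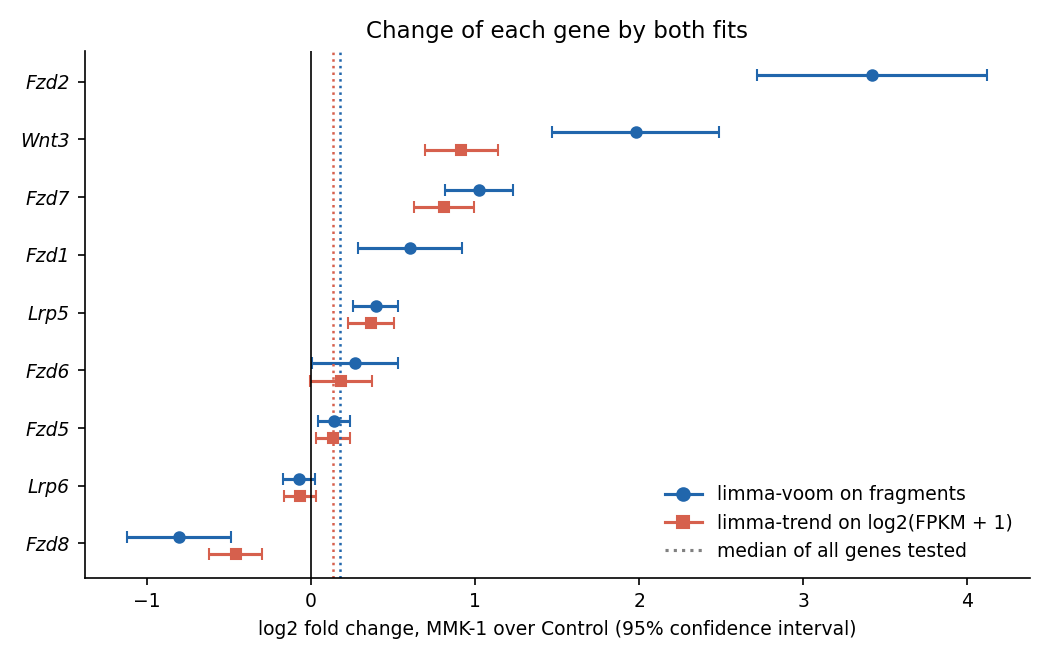
Log2 fold change of MMK-1 over Control (horizontal axis) with 95% confidence intervals, by limma-voom on fragments (blue circles) and by limma-trend on log2(FPKM + 1) (red squares, where the mean FPKM reached 1). Dotted lines mark the median of all genes tested in each fit, 0.17 and 0.13. Fzd2, Wnt3 and Fzd7 lie farthest to the right and Fzd8 alone lies clearly to the left, while Fzd5 sits on the median. Wnt11 is left out because no library exceeded 3 fragments.

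The coreceptors Lrp5 and Lrp6, which bind Wnt proteins beside a Frizzled and carry the signal to Axin, were nearly equal in Controls and diverged with MMK-1. Lrp5 (NCBI gene 16973, chr19:3584825-3686585) had an FPKM of 12.7, 12.05 and 11.4 in Controls and 15.1, 15.3 and 17.2 with MMK-1. Every MMK-1 library was above every Control, with MMK-1 replicate 3 the highest. The mean rose from 12.1 ± 0.621 to 15.8 ± 1.17 (SD, n = 3), and the log2 fold change was 0.37 by limma-trend (standard error 0.0614, adjusted p = 6.36e-04). Without MMK-1 replicate 3 it was 0.31 (adjusted p = 4.21e-04), and over 16 alternatives the adjusted p lay between 0.00015 and 0.0168. On the log2 scale Lrp5 changed by 0.232 more than the median gene. With upper-quartile scaling over all listed genes its log2 fold change was 0.21 (adjusted p = 0.00916 by limma-trend), where that median was -0.00771, and with the length trend removed it was 0.23 (adjusted p = 0.0168), where the median was 0.131.

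Lrp6 (NCBI gene 16974, chr6:134446476-134566913) had an FPKM of 12.4, 12.4 and 11.9 in Controls and 11.99, 11.4 and 11.4 with MMK-1. The groups overlapped slightly, through Control replicate 3 and MMK-1 replicate 1. The mean was 12.2 ± 0.295 and 11.6 ± 0.321 (SD, n = 3), a log2 fold change of -0.07 by limma-trend with a 95% confidence interval from -0.168 to 0.0319 (adjusted p = 0.189). The call of Lrp6 depended on the scaling: with upper-quartile scaling its log2 fold change was -0.14 over the genes tested (adjusted p = 0.0143 by limma-trend) and -0.22 over all listed genes (adjusted p = 0.00169), the lowest of 16 alternatives that reached up to 0.402. A ratio within a library does not depend on a scaling factor common to its genes. The ratio of Lrp5 to Lrp6 FPKM was 1.02, 0.969 and 0.961 in Controls and 1.26, 1.33 and 1.5 with MMK-1, without overlap (exact permutation p = 0.1, the smallest possible).

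The order of levels per length changed in places. In Controls it ran from Fzd5 through Lrp6, Lrp5, Fzd7, Fzd6, Fzd8, Fzd1, Wnt3 and Fzd2 to Wnt11. The ranges of neighbours overlapped there for Lrp6 and Lrp5 and for Fzd6 and Fzd8. With MMK-1 it ran from Fzd5 through Lrp5, Lrp6, Fzd7, Fzd6, Wnt3, Fzd1, Fzd8 and Fzd2 to Wnt11, and neighbours overlapped for Fzd1 and Fzd8 and for Fzd8 and Fzd2. Wnt3 thus moved above Fzd1 and Fzd8, and Lrp5 moved above Lrp6.

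Considering the Frizzled genes as a pool, the summed FPKM of all 10 Frizzled genes in the table was 29.9 ± 0.284 in Controls and 35.9 ± 1.52 with MMK-1 (SD, n = 3). Fzd7 held 9.01% ± 1.40 of this sum in Controls and 15.2% ± 0.362 with MMK-1. Fzd2 held 0.304% ± 0.0515 and 2.79% ± 0.311. Fzd1 held 2.54% ± 0.323 and 3.21% ± 0.260. Together this subfamily went from 11.9% ± 1.66 to 21.2% ± 0.512, without overlap between groups. The shares of the other subfamily were lower with MMK-1, at 64.4% ± 1.25 and 59.0% ± 0.434 for Fzd5 and at 5.91% ± 0.593 and 2.82% ± 0.329 for Fzd8. Fzd6 held 6.34% ± 0.533 and 6.36% ± 0.626, with overlapping groups. Each share that did not overlap, those of Fzd1, Fzd2, Fzd4, Fzd5, Fzd7 and Fzd8, had an exact permutation p of 0.1, the smallest possible, and 0.167 after adjustment over the 10 Frizzled genes. Shares sum to 100%, so a lower share of Fzd5 stands beside a level that did not fall. Shares of fragments, not divided by length, were compared for Fzd1, Fzd2, Fzd5, Fzd6, Fzd7 and Fzd8, and not for Fzd4. The differences kept their direction, and all but that of Fzd6 were smaller. Among them were Fzd2, at 1.46 in place of 2.48 percentage points, Fzd7, at 4.93 in place of 6.15, and Fzd8, at -1.61 in place of -3.09.

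**Figure D3:**
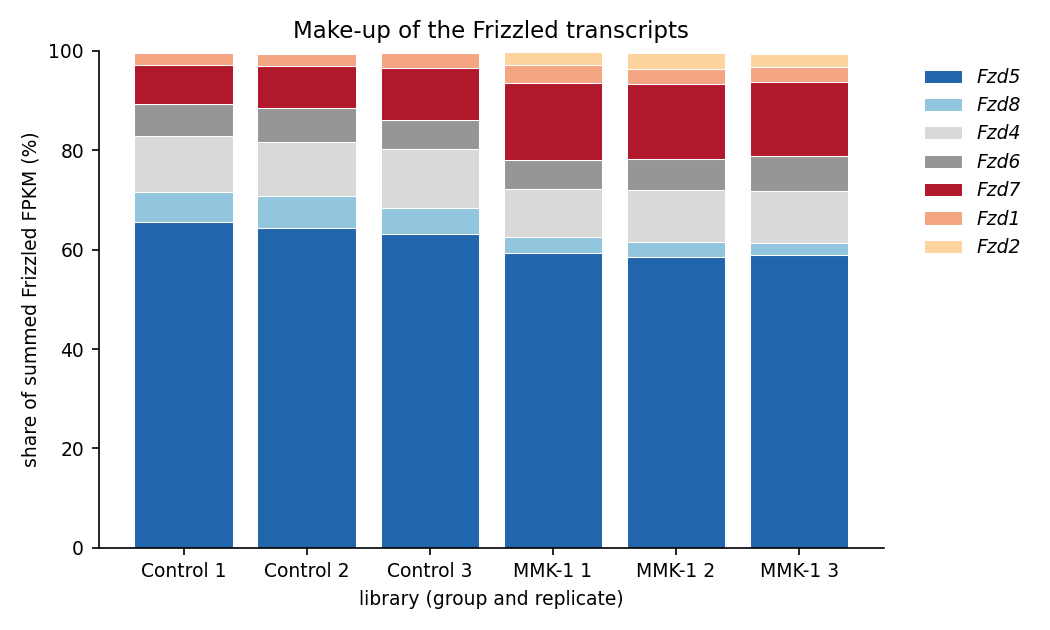
Share of the summed Frizzled FPKM (vertical axis, %) held by 7 Frizzled genes in each library (horizontal axis), as stacked bars. Fzd3, Fzd9 and Fzd10 make up the small rest to 100%. The red and orange segments of Fzd7, Fzd1 and Fzd2 hold 10.6% to 13.7% in Controls and 20.6% to 21.7% with MMK-1, and the blue segments of Fzd5 and Fzd8 are smaller with MMK-1.

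Other Frizzled genes showed no call. Fzd4, the second most abundant Frizzled in Controls at an FPKM of 3.36, had a log2 fold change of 0.09 by limma-trend (adjusted p = 0.192). Fzd3 had 8 to 30 fragments over the 6 libraries (adjusted p = 0.821 by limma-voom), and Fzd9 had 1 to 16 (adjusted p = 0.066 by limma-voom).

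Genes that make Wnt ligands ready for release and genes that act beside or below the receptors were described by lists. Porcn, which attaches the lipid to Wnt proteins, and Wls, which carries them to the surface, rose with log2 fold changes of 0.59 (adjusted p = 0.00262) and 0.53 (adjusted p = 3.71e-05) by limma-trend. Mesd, a chaperone of LRP5 and LRP6, was at -0.03 (adjusted p = 0.731). Of the alternative Wnt receptors, Ror2 rose by 0.64 on the log2 scale (adjusted p = 1.32e-05 by limma-trend), and Ryk was at 0.07 (adjusted p = 0.167).

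Among antagonists, Kremen1, which with Dickkopf proteins removes LRP6 from the surface, was the 1 gene tested by limma-trend and rose by 0.34 (log2, adjusted p = 4.87e-04). By limma-voom 2 of 7 antagonists were higher and 1 was lower, shares no larger than the 39.0% and 20.5% of all genes of that fit. Sfrp5, a secreted Wnt inhibitor, had 2 to 7 fragments in Controls and 17 to 23 with MMK-1 (adjusted p = 0.00382 by limma-voom), and Dkk4, a secreted LRP inhibitor and known Wnt target, had 10 to 23 and 1 to 3 (adjusted p = 0.00243). Both were chosen for mention after their values were seen.

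All 4 tested genes of the R-spondin axis, which sets how long Frizzled receptors stay on the surface, rose by limma-trend, in which 48.5% of all genes were higher. Lgr5, an R-spondin receptor and stem cell marker, was at a log2 fold change of 2.86 (adjusted p = 3.24e-09), and Znrf3, a ligase that removes Frizzled and LRP6 from the surface, at 0.76 (adjusted p = 4.03e-05). Of 12 transducers tested, 9 rose, 1 fell and 2 passed in neither direction, beside 48.5% of all genes higher and 24.7% lower. Axin2, a scaffold of β-catenin destruction and a Wnt target, rose by 1.80 (log2, adjusted p = 1.61e-08), and Apc, another part of that complex, by 0.68 (adjusted p = 2.49e-05), both by limma-trend. Btrc, a ubiquitin ligase subunit for β-catenin, fell by 0.17 on the log2 scale (adjusted p = 0.0406), and Dvl1, a Dishevelled gene, was at -0.09 (adjusted p = 0.0572). The median log2 fold change was 0.43 over the 12 transducers, 0.61 over the 4 genes of the R-spondin axis and 0.13 over all genes tested.

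**Figure D4:**
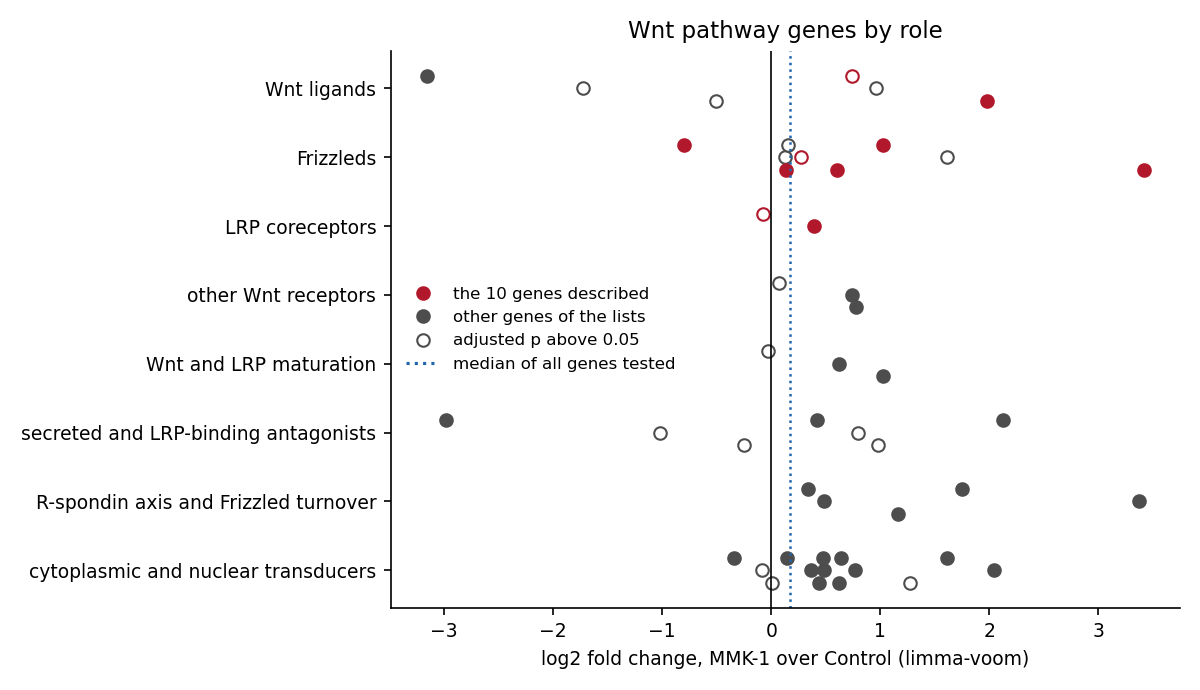
Log2 fold change by limma-voom (horizontal axis) of the genes with at least 10 fragments over the 6 libraries, in the lists by role (vertical axis). Red circles are the 10 genes, grey circles are the others, open circles have an adjusted p above 0.05, and the dotted line is the median over all genes of that fit, 0.17. Wnt4 and Dkk4 lie farthest to the left and Fzd2 and Lgr5 farthest to the right.

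The genes whose pattern over the 6 libraries was most like that of Wnt3, by Euclidean distance between log2(FPKM + 1) values centred on the Control mean, were Psmg3 (distance 0.136), Aspg (0.182) and Nxt1 (0.184). Those nearest to Fzd2 were Ticrr (0.0721), Aunip (0.0812) and Rac3 (0.0817). The added 1 compresses low genes on this scale, so likeness there is not likeness in FPKM ratio. The mean FPKM of Ticrr went from 1.44 to 3.42, that of Aunip from 2.59 to 5.74 and that of Rac3 from 3.39 to 7.03, against the ratio of 11.02 for Fzd2. For Psmg3 it went from 10.8 to 20.8, for Aspg from 3.84 to 8.16 and for Nxt1 from 6.98 to 13.1, against 3.81 for Wnt3.

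Markers of other cell types moved with the treatment too. The counts of markers are from limma-trend, in which 48.5% of all genes were higher and 24.7% lower. All 5 intestinal stem cell markers rose, with a summed FPKM of 62.1 to 63.6 in Controls and 364 to 393 with MMK-1. Of 9 enterocyte markers 8 fell and 1 rose, with sums of 8840 to 8940 and 4890 to 5290. The 9 mesenchyme markers in the table summed to 5.81 to 6.26 in Controls and 3.64 to 5.24 with MMK-1, most of it Vim, the 7 leukocyte markers to 5.41 to 6.19 and 1.80 to 2.92, nearly all of it Cd68 and Itgam, and the 4 markers of enteric neurons and glia to 0.253 to 0.388 and 0.280 to 0.369. Of 7 epithelial markers 3 rose (Cdh1, Krt18 and Cdx2), 3 fell (Vil1, Krt8 and Krt19) and Epcam passed in neither direction, so that the share higher was near that of all genes, with sums of 3360 to 3390 in Controls and 2400 to 2590 with MMK-1. The part of the stem cell and enterocyte markers in the changes of the Frizzled and LRP genes was not tested.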

How the data were processed

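Organoid RNA was sequenced as 150-bp paired-end reads from 3 libraries per group. The authors deposited FPKM values. The submitters' processing notes name HISAT2, HTSeq, R 3.2.0, DESeq2 and mm10, without their roles, and the annotation and strand setting are not given in the sources used here. Fragments and library totals were computed from the FPKM steps. For 99.99% of genes above 0 the implied length lay at most 0.1 from a whole base, and 99.7% of each total lay on listed genes. The floor of 3 fragments covers counting error only, whereas the confidence intervals of the fits include the spread between libraries.

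Genes whose mean FPKM reached 1 were fitted by limma-trend (limma 3.58.1, R 4.3.3) on log2(FPKM + 1). Genes with at least 10 fragments in all were fitted by limma-voom with library totals as scaling, which is the reported fit for Wnt11, Fzd1 and Fzd2. P-values were adjusted by Benjamini-Hochberg over all genes of a fit. The 10 genes, the lists and the tests were chosen with earlier results of these data known. The named genes were the 10 genes, the listed genes with the 2 largest changes in each direction at a mean FPKM of at least 1, the other Wnt and Frizzled genes with at least 10 fragments in 1 library, and the 3 nearest genes of Wnt3 and Fzd2. Sfrp5, Dkk4 and the marker genes named fall outside this rule. In simulated libraries with 200 changed genes, limma-trend recovered 100% of those changed by 1 or 2 on the log2 scale among 10378 genes and called 19 unchanged genes, and limma-voom recovered 100% among 15677 genes and called 8. The changed genes were drawn only from well-covered genes, with a small fixed spread between libraries. In Controls, Wnt3, Fzd2 and Wnt11 lay below that coverage, so this recovery does not extend to them. Promoters, gene numbers and coordinates are from RefSeq on GRCm38.p6. Alternatives covered scaling, filters, pseudocount, TPM, GC content, length, a replicate block, the fold threshold and each replicate left out. Python 3.11.15 was used with numpy 2.4.6, pandas 2.3.3 and matplotlib 3.10.9.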

Additional observations from a re-analysis of the deposited data

How the results depend on the processing

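Wnt3, Fzd7, Lrp5 and Fzd8 kept their direction and an adjusted p up to 0.05 under the 16 alternatives run for them. Fzd1 and Fzd2 did so under 9, which left out TPM, GC content and length. The number of genes that fell, by adjusted p, was 2 in place of 1, through Lrp6, with upper-quartile scaling over the genes tested, with such scaling over all listed genes (chosen after seeing the data) and with the GC content or length trend removed. The number higher at a fold change of at least 2 was 1 (Wnt3) with a pseudocount of 0.1 or with TPM, 2 (Fzd2 and Wnt3) with all genes above 0 and a pseudocount of 0.1, 3 by limma-voom and 2 (Fzd7 and Wnt3) at a threshold of 1.5. With each replicate left out in turn this number ranged from 0 to 1, through Wnt3 without Control replicate 3, the number higher at an adjusted p of at most 0.05 from 3 to 5, and the fitted value of Wnt11 from -0.0324 (without Control replicate 2) to 1.13, which rests on 0 to 3 fragments a library and carries no direction. The log2 fold change of Fzd5 was -0.02461 with upper-quartile scaling over all listed genes and 0.02 (adjusted p = 0.741) with the length trend removed. Scaling over all listed genes moved the median of all genes by -0.142, to -0.00771. As shares of fragments not divided by length, the differences in share were 1.46 percentage points in place of 2.48 for Fzd2, 4.93 in place of 6.15 for Fzd7 and -1.61 in place of -3.09 for Fzd8.

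No pairing of the samples by replicate number was seen, as the correlations of the deviations of same-numbered libraries were 0.0253, -0.04 and 0.0279, and not every library correlated best with its own number. With so few libraries a group, these values cannot exclude that samples shared mice or a batch. With the replicate block, 3 in place of 4 genes were higher at an adjusted p of at most 0.05 and 1 was lower, with Fzd5 at an adjusted p of 0.0549 in limma-trend. Depth limits Wnt11 and the other sparse Wnt genes.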
